A study of Homo sapiens with 4 samples.

Results

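Expression of 10 genes of BMP4 signalling was examined in the breast cancer cell lines MDA-MB-231 and LM2-4175, out of 57815 genes in the deposited table. The genes were chosen by name for their place in the pathway, with earlier results of these data known. They are the ligand BMP4, its extracellular inhibitor GREM1, the receptors BMPR1A and BMPR2, the signal transducers SMAD1 and SMAD5, the inhibitory SMAD6, and the target genes ID1, ID2 and ID3. Each symbol had 1 entry in the table. MDA-MB-231 is a human triple-negative breast cancer cell line, and LM2-4175 is a population isolated from it that metastasizes to the lung. Both were grown without treatment in DMEM with serum, and 2 libraries of total RNA per cell line were sequenced. LM2-4175 is a single derived population, so a difference that goes with lung metastasis cannot be told apart from one that is particular to that population.

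BMP4 is a secreted dimer of the TGF-beta superfamily. It binds type I receptors such as BMPR1A and the type II receptor BMPR2, which phosphorylate SMAD1, SMAD5 and SMAD9. These enter the nucleus with SMAD4 and switch on target genes, among which ID1, ID2 and ID3 are the classical ones. ID proteins hold a helix-loop-helix domain without a DNA-binding region and pair with E proteins such as TCF3 and TCF12, which then cannot bind DNA. SMAD6 and SMAD7 block the receptors and are themselves induced by the pathway, while GREM1, noggin and chordin trap the ligand outside the cell.

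The values are FPKM, that is, fragments per kilobase of gene model scaled to sequencing depth, so that levels can be compared between genes. For each gene the table holds 1 value per cell line, in which both libraries are combined, with a lower and an upper bound. No spread between replicates and no p-value could therefore be given, and differences were read against the bounds. Changes are log2 ratios of FPKM + 1, LM2-4175 over MDA-MB-231. The added 1 makes changes of low genes smaller, so for the genes on which this weighed most the log2 ratio of the plain FPKM is given as well. A gene was tested with a mean of at least 0.5 FPKM, and called where it differed at least 1.5-fold and the bounds of the cell lines were apart. Of all genes, 13911 were tested and 9.27% of them were called, 4.67% higher and 4.61% lower in LM2-4175. The libraries were made from bulk RNA, in which fewer expressing cells and less RNA per cell cannot be told apart.

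The label of the cell lines was checked against marker genes. VIM had 1355 FPKM in MDA-MB-231 and 1768 FPKM in LM2-4175, whereas ESR1 and PGR, the oestrogen and progesterone receptors, were under 0.05 FPKM in both. ERBB2, which encodes HER2, the further receptor that defines the triple-negative class, was expressed, with 35.0 FPKM in MDA-MB-231 and 22.8 FPKM in LM2-4175. These are levels of RNA, and the amount of HER2 protein was not measured. Markers of other cell types stayed low, with sums of 1.25 and 1.78 FPKM for 4 white blood cell genes, 1.06 and 2.59 FPKM for 3 endothelial genes, and 4.25 and 0.349 FPKM for 4 fibroblast genes. CD3E was listed at 0 in both cell lines. The endothelial gene KDR was called higher in LM2-4175 (0.971 to 2.48 FPKM), and COL1A2 (2.76 to 0.113 FPKM) and LUM (1.34 to 0.178 FPKM) of the fibroblast genes were called lower, as was the epithelial gene EPCAM (12.3 to 4.93 FPKM). The part of these genes in the results that follow was not tested.

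Of the 10 genes, 9 passed the filter on low values, and GREM1 did not. BMP4, BMPR2, ID1 and ID3 were called lower in LM2-4175 and SMAD1 was called higher, which makes 5 of 9 (55.6%) beside 9.27% of all genes tested. Because the genes were chosen with earlier results known, this share is a description only. The median change of the 9 genes was -0.94, beside -0.04 over all genes tested. ID2 missed the call by a narrow overlap of its bounds, and BMPR1A, SMAD5 and SMAD6 were not called.

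**Figure D1:**
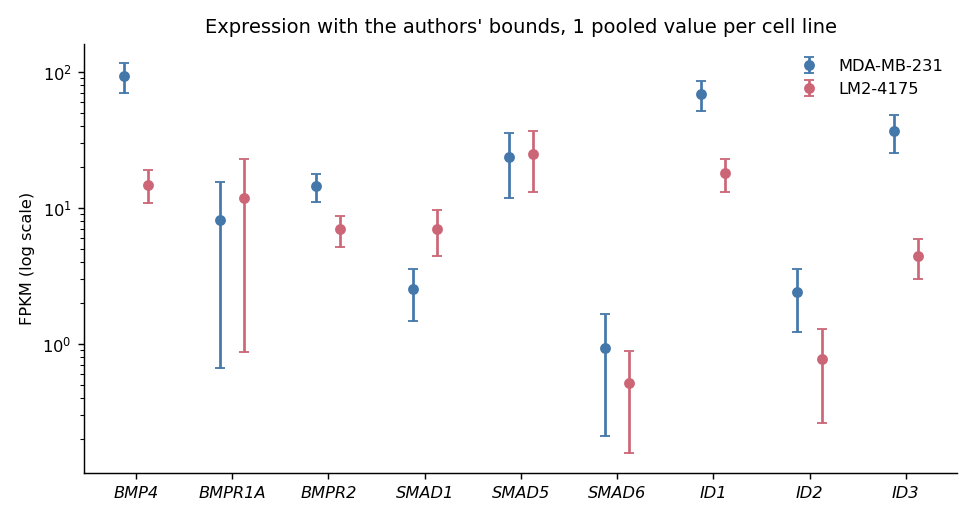
Points are the FPKM of 9 of the genes on a log scale, 1 pooled value per cell line, and bars are the deposited bounds. BMP4, ID1 and ID3 lie well below their MDA-MB-231 level in LM2-4175 (for BMP4, 93.3 against 14.9 FPKM), the bars of BMPR1A and SMAD5 overlap almost entirely, and GREM1, listed at 0 in MDA-MB-231, is left out.

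The ligand BMP4 (ENSG00000125378, chr14:54416454-54425479, minus strand, hg19) was the highest of the 10 genes in MDA-MB-231, at 93.3 FPKM (bounds 70.7 to 115.9). In LM2-4175 its level was 14.9 FPKM (10.8 to 18.9). It was thus 6.28-fold lower in LM2-4175, a log2 change of -2.57. Setting opposite bounds against each other gives ratios of LM2-4175 to MDA-MB-231 from 0.0935 to 0.267. Only 49 of the genes tested (0.352%) had a lower log2 change. In the ranking of the genes tested by level, BMP4 moved from the 91.9th percentile in MDA-MB-231 to the 56.7th percentile in LM2-4175. An annotated gene on the opposite strand covers 16.3% of the BMP4 exon bases, and the sources used here do not say whether strand was used in counting.

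BMP4 made up most of the BMP ligand message in both cell lines. Over BMP4 and 13 further BMP and GDF genes, the summed level was 99.2 FPKM in MDA-MB-231 and 20.1 FPKM in LM2-4175. BMP4 accounted for 94.1% and 73.9% of these sums. The 13 other ligands together had 5.89 and 5.24 FPKM, a ratio of 0.890, so the lower sum lay almost wholly in BMP4. Only 3 of the 13 passed the filter on low values, and 2 of these were called (66.7%, beside 9.27% of all genes). BMP2, the closest relative of BMP4, was called higher in LM2-4175 (0.422 to 1.91 FPKM, log2 change 1.03, or 2.17 on plain FPKM). GDF5, a growth factor of joint and cartilage formation, was called lower (3.01 to 0.151 FPKM, log2 change -1.80, or -4.32 on plain FPKM), and GDF5-AS1 on the other strand covers 35.4% of its exon bases. BMP8B had 1.68 and 1.86 FPKM and was not called. BMP2 in MDA-MB-231 and GDF5 in LM2-4175 lay below the 0.5 FPKM of the filter. Each passed it only through its level in the other cell line. With 1.91 FPKM, BMP2 in LM2-4175 remained below the 14.9 FPKM of BMP4 in the same cells, and their bounds did not overlap (1.32 to 2.49 against 10.8 to 18.9 FPKM).

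GREM1, which binds BMP4 and keeps it from its receptors (ENSG00000166923, chr15:33009471-33026870, plus strand), was listed at 0 in MDA-MB-231. In LM2-4175 it had 0.0123 FPKM with an upper bound of 0.0807 FPKM. No change can be given at these levels. Other inhibitors of the ligand were measured well above it. CHRDL1, a chordin-like BMP antagonist, had 3.48 FPKM in MDA-MB-231 (2.39 to 4.57) and 18.3 FPKM in LM2-4175 (13.6 to 23.1), and was called higher with a log2 change of 2.11. NOG, which encodes noggin, had 6.32 FPKM in MDA-MB-231 (4.49 to 8.15) and 13.0 FPKM in LM2-4175 (9.69 to 16.3), and was called higher with a log2 change of 0.94. The direction of the summed inhibitor level depended on the genes in the sum. NOG, CHRD, CHRDL1, CHRDL2 and GREM1 together had 9.94 FPKM in MDA-MB-231 and 31.4 FPKM in LM2-4175, a ratio of 3.16 that rests on the genes called. All 17 listed inhibitors and modulators with GREM1 had 463.7 and 330.8 FPKM, a ratio of 0.713. Both sums were chosen after the values had been seen. The level of BMP4 was 9.38 and 0.473 times the first sum and 0.201 and 0.0449 times the second, each time lower in LM2-4175.

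The other extracellular modulators tested had log2 changes below 0. Of 17 inhibitors and modulators beside GREM1, 9 were tested and 4 were called (44.4%, beside 9.27% of all genes). Of these 2 were higher and 2 lower, and 7 of the 9 had a log2 change below 0, with a median of -0.62 beside -0.04 over all genes tested. The genes called lower were TWSG1, which joins BMP and chordin in a complex (75.7 to 38.8 FPKM, log2 change -0.95), and FSTL3, a follistatin-like binder of activin (16.8 to 9.39 FPKM, log2 change -0.78). The most abundant of the group was FSTL1, at 164.3 and 120.7 FPKM, followed by CRIM1 at 116.0 and 75.0 FPKM. Neither was called, nor were FST (29.2 and 17.5 FPKM), NBL1 (47.9 and 36.4 FPKM) and BMPER (3.23 and 1.17 FPKM), each of which is known to bind a ligand of the family. 

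**Figure D2:**
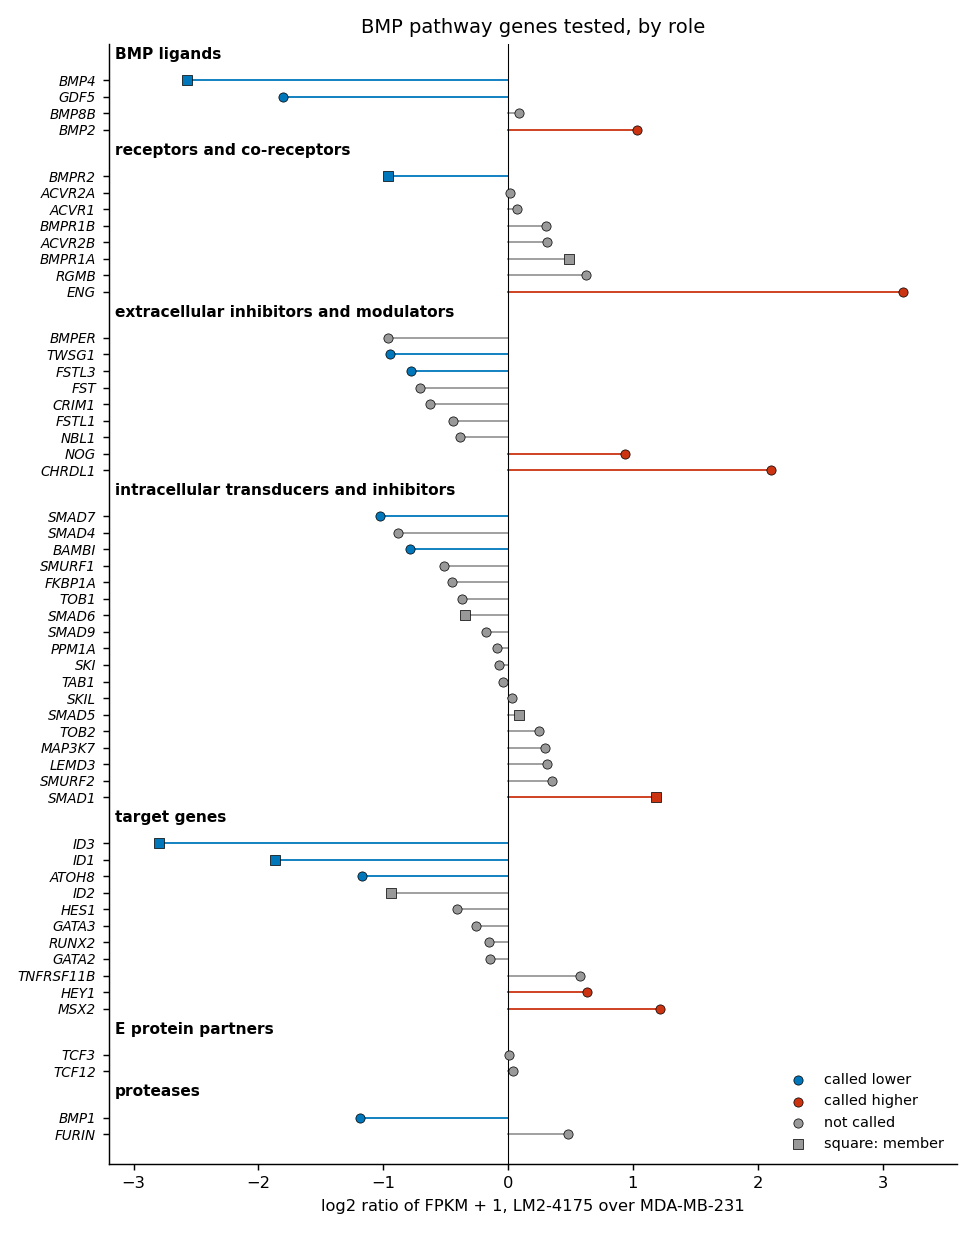
The horizontal axis is the log2 ratio of FPKM + 1, LM2-4175 over MDA-MB-231, for each BMP pathway gene tested, grouped by role, with squares for the genes described in detail and circles for those of the other lists. BMP4 (-2.57) and GDF5 (-1.80) stand apart among the ligands, CHRDL1 (2.11) among the inhibitors, ENG (3.16) among the receptors, and ID3 (-2.80) and ID1 (-1.87) among the targets.

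The receptors did not move as 1 group. The type I receptor BMPR1A (ENSG00000107779, chr10:88516407-88692595, plus strand) stood at 8.16 FPKM in MDA-MB-231 (0.659 to 15.7) and 11.8 FPKM in LM2-4175 (0.865 to 22.8). It was not called, at a log2 change of 0.49. Its bounds were wide for its level, reaching 91.9% and 92.7% above the FPKM, whereas the median over genes tested was 38.6% and 38.1%.

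The type II receptor BMPR2 (ENSG00000204217, chr2:203241659-203432474, plus strand) stood at 14.5 FPKM in MDA-MB-231 (11.1 to 17.9) and 6.95 FPKM in LM2-4175 (5.14 to 8.76). It was called lower, at 2.09-fold and a log2 change of -0.97, and 4.31% of the genes tested had a lower one. By the bounds the ratio ran from 0.287 to 0.786. At a threshold of 2-fold on the log2 ratio of FPKM + 1, which 6.13% of all genes tested passed, BMPR2 was no longer called.

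Of 9 further receptors and co-receptors, 6 were tested, and 1 was called higher and none lower (16.7%, beside 9.27% of all genes). All 6 had log2 changes above 0, with a median of 0.31 beside -0.04 over all genes. The gene called was ENG, or endoglin, a co-receptor for BMP9, BMP10 and TGF-beta best known from endothelium. It had 0.463 FPKM in MDA-MB-231 (0.0641 to 0.862) and 12.1 FPKM in LM2-4175 (8.96 to 15.2), a log2 change of 3.16 (4.71 on plain FPKM). In MDA-MB-231, ENG lay below the 0.5 FPKM of the filter and passed it only through its level in LM2-4175. Of the endothelial markers, CDH5 and TEK were under 0.1 FPKM in both cell lines, while KDR was called higher in LM2-4175 together with ENG (0.971 to 2.48 FPKM). Its part in the level of ENG was not tested. ACVR1, a type I receptor with a level like that of BMPR1A, had 10.0 and 10.5 FPKM. The type II receptors ACVR2A (2.36 and 2.38 FPKM) and ACVR2B (1.45 and 2.04 FPKM), which can also take BMP ligands, lay below BMPR2 in both cell lines. The co-receptor RGMB had 23.1 and 36.1 FPKM, and 45.8% of its exon bases are covered by genes on the other strand. BMPR1B had 0.387 and 0.715 FPKM.

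Of the signal transducers, SMAD1 was called higher and SMAD5 was not called. SMAD1 (ENSG00000170365, chr4:146402346-146479231, plus strand) stood at 2.52 FPKM in MDA-MB-231 (1.47 to 3.57) and 7.02 FPKM in LM2-4175 (4.45 to 9.59). Its log2 change was 1.19 and its ratio 2.78, with limits of 1.25 and 6.50 by the bounds, and 3.15% of the genes tested had a higher log2 change. With a filter at a mean of 5 FPKM, under which 8.03% of genes were called, SMAD1 would not have been tested. SMAD1-AS1 on the other strand covers 5.30% of its exon bases. SMAD5 (ENSG00000113658, chr5:135465196-135524435, plus strand) stood at 23.6 FPKM in MDA-MB-231 (11.8 to 35.4) and 25.1 FPKM in LM2-4175 (13.2 to 37.1), a log2 change of 0.09.

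SMAD5 was the main receptor-regulated SMAD message of the pathway in both cell lines. Together with SMAD9, which had 0.979 and 0.755 FPKM, the 3 transducers summed to 27.1 FPKM in MDA-MB-231 and to 32.9 FPKM in LM2-4175. SMAD5 held 87.1% and 76.4% of these sums, and SMAD1 held 9.30% and 21.3%. The sum in LM2-4175 was 1.21 times that in MDA-MB-231. SMAD4, the partner shared with TGF-beta signalling, had 33.0 FPKM in MDA-MB-231 (17.0 to 49.0) and 17.5 FPKM in LM2-4175 (9.03 to 25.9). Its log2 change of -0.88 passed the fold but its bounds overlapped, so it was not called.

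Of the inhibitory SMADs, SMAD7 was called lower and SMAD6 was not called. SMAD6 (ENSG00000137834, chr15:66994566-67074338, plus strand) stood at 0.926 FPKM in MDA-MB-231 (0.210 to 1.64) and 0.517 FPKM in LM2-4175 (0.156 to 0.878). It was not called, at a log2 change of -0.34 (-0.84 on plain FPKM). SMAD7, which also blocks TGF-beta receptors, had 8.30 FPKM in MDA-MB-231 (5.69 to 10.9) and 3.57 FPKM in LM2-4175 (2.33 to 4.80), a log2 change of -1.03. The sum of SMAD6 and SMAD7 was 9.22 FPKM in MDA-MB-231 and 4.08 FPKM in LM2-4175. BAMBI, a decoy receptor without a kinase domain, was also called lower (5.44 to 2.73 FPKM, log2 change -0.79).

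Of the 15 intracellular genes listed beside the members, all were tested, none was called higher and 2 were called lower, SMAD7 and BAMBI (13.3%, beside 9.27% of all genes). The median log2 change was -0.09. The most abundant were FKBP1A, which holds type I receptors inactive (669.5 and 491.0 FPKM), and SMURF2, a ubiquitin ligase for SMADs and receptors (112.6 and 144.0 FPKM). PPM1A, a SMAD phosphatase (36.7 and 34.4 FPKM), and SKI, a SMAD co-repressor (23.5 and 22.3 FPKM), differed by little beside their bounds.

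ID3 and ID1 had, with BMP4, the largest changes of the 10 genes. ID1 (ENSG00000125968, chr20:30193086-30194318, plus strand) stood at 68.5 FPKM in MDA-MB-231 (51.7 to 85.4) and 18.1 FPKM in LM2-4175 (13.2 to 23.0). It was 3.79-fold lower in LM2-4175, a log2 change of -1.87, with ratios of 0.154 to 0.445 by the bounds, and 0.913% of the genes tested had a lower log2 change. ID3 (ENSG00000117318, chr1:23884409-23886285, minus strand) stood at 37.0 FPKM in MDA-MB-231 (25.4 to 48.7) and 4.46 FPKM in LM2-4175 (2.99 to 5.93). It was 8.30-fold lower, a log2 change of -2.80, with ratios of 0.0615 to 0.233, and 35 of the genes tested (0.252%) had a lower log2 change. These ranges of ID1 and ID3 overlap, so the bounds do not tell their decreases apart. No other annotated gene overlaps the exons of ID1 or ID3.

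ID2 (ENSG00000115738, chr2:8806766-8824583, plus strand) was expressed at a much lower level than ID1 and ID3. It had 2.39 FPKM in MDA-MB-231 (1.22 to 3.55) and 0.769 FPKM in LM2-4175 (0.261 to 1.28). It was 3.10-fold lower by the ratio (0.322), and the log2 change was -0.94 (-1.63 on plain FPKM), which 4.61% of the genes tested went below. The upper bound in LM2-4175 (1.28) lies just above the lower bound in MDA-MB-231 (1.22), and ID2 was not called. By the fold alone, which 22.1% of all genes passed, and by the fold with a difference of 2 standard errors, which 14.1% passed, it would have been called lower. ID4 had 0.125 and 0.425 FPKM and was not tested for its low mean.

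Over ID1 to ID4 the summed level was 108.1 FPKM in MDA-MB-231 and 23.7 FPKM in LM2-4175, a ratio of 0.220. The share of ID1 in this sum was 63.4% for MDA-MB-231 and 76.2% for LM2-4175, while the share of ID3 was 34.3% and 18.8%. The level of ID1 was 1.85 times that of ID3 in MDA-MB-231 and 4.05 times in LM2-4175. The E proteins that the ID proteins bind did not share this pattern. TCF3 had 50.2 and 50.5 FPKM and TCF12 had 29.4 and 30.2 FPKM, neither of them called, and TCF4 was not tested for its low mean. The sum over the 3 E protein genes was 79.7 FPKM in MDA-MB-231 and 80.9 FPKM in LM2-4175. The ratio of ID message to E protein message was thus 1.36 in MDA-MB-231 and 0.293 in LM2-4175.

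**Figure D3:**
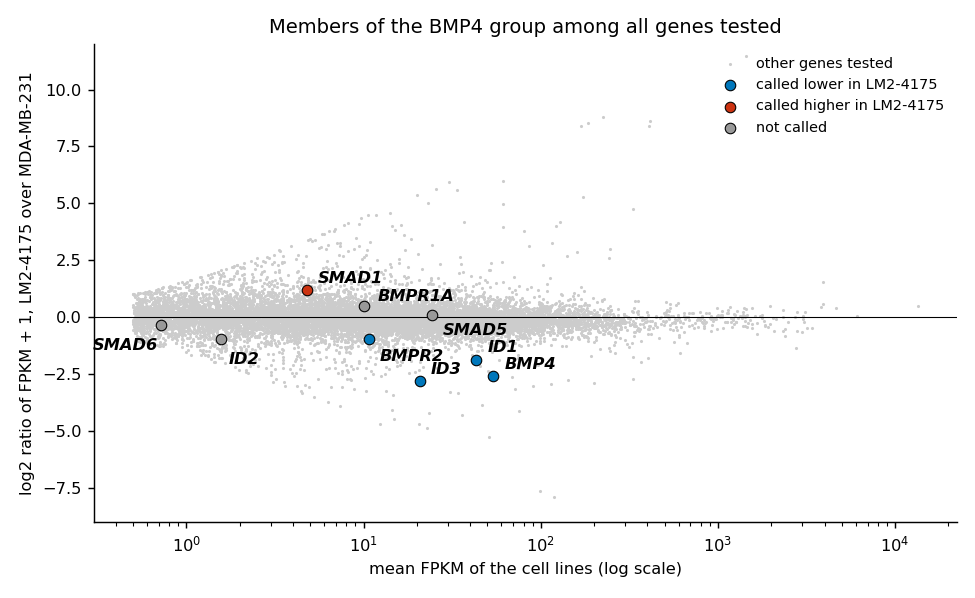
Each grey point is a gene tested, with the mean FPKM of the cell lines on a log scale on the horizontal axis and the log2 ratio of FPKM + 1, LM2-4175 over MDA-MB-231, on the vertical axis. ID3 (-2.80), BMP4 (-2.57) and ID1 (-1.87) lie below most genes of like level, SMAD1 (1.19) lies above the bulk, and SMAD5 (0.09), BMPR1A (0.49) and SMAD6 (-0.34) lie within it.

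SMAD complexes bind GC-rich elements with the core GGCGCC, in known BMP-responsive enhancers together with the SMAD4 core GTCT at a fixed distance. The sequence upstream of the ID genes is shown because ID3 and ID1 were called lower and are classical targets, with ID2 for comparison. GGCGCC was searched on both strands in the 3000 bases before each gene start of GENCODE 44 on GRCh37, a window chosen after the expression values had been seen. It was found before all 3 ID genes and before 8 of the 10 genes in all, among them BMPR1A, SMAD6 and GREM1, which were not called or not tested, and 47.4% of 20129 protein-coding genes hold it in such a window. GGCGCC with GTCT after 5 further bases was found before ID3 and before none of the other 9 genes, and 0.323% of protein-coding genes (65) hold this arrangement. Only the exact letters GTCT were searched for at this spacing. In ID1 the bases in the same place read GACA, and such other spellings were not counted, so ID1 is not shown to lack a site there. The GENCODE 44 starts are at 30193086 (ID1), 8818975 (ID2) and 23885992 (ID3), and those of ID2 and ID3 lie inside the spans given above from the authors' table. Below, capitals mark GGCGCC and each GTCT on the strand of the gene, 5′ to 3′. The stretches cover chr20:30192097-30192176 (plus strand, 989 to 910 bases before the ID1 start), chr2:8816638-8816717 (plus strand, 2337 to 2258 bases before the ID2 start) and chr1:23888904-23888983 (minus strand, 2991 to 2912 bases before the ID3 start).
ID1: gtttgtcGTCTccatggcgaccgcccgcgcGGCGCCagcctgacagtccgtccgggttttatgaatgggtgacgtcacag
ID2: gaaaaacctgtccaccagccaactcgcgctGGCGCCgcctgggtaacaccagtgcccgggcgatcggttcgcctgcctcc
ID3: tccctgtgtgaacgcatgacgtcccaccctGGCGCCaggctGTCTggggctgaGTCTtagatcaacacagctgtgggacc

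GGCGCC lies 959 bases before the start of ID1, 2307 bases before that of ID2 and 2961 bases before that of ID3. GTCT occurs 1 time in the ID1 stretch, on the other side of GGCGCC from its place in ID3, 2 times in the ID3 stretch, and is not spelled on the printed strand of the ID2 stretch. In the 250 bases before the RefSeq starts, GGCGCC (16.4% of all such windows), CAGACA (13.6%) and the E-box CACCTG (17.5%) had no match for the ID genes on either strand. The E-box CAGCTG (14.0%), a class of site that E proteins bind, was found 205 bases before the ID2 start. These are matches of letters only, and the deposited expression table says nothing about binding at them.

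Genes of the further target list were called in both directions, all of them at low levels. SMAD6 and SMAD7, which the pathway also induces, are described above and not counted here. SMAD6 was not called, and SMAD7 was called lower (8.30 to 3.57 FPKM). Of 13 further targets, 8 were tested, and 2 were called higher and 1 lower (37.5%, beside 9.27% of all genes), with a median log2 change of -0.15. ATOH8, a helix-loop-helix factor downstream of BMP receptors, was called lower (2.99 to 0.769 FPKM, log2 change -1.17, or -1.96 on plain FPKM). MSX2, a homeobox factor of skeletal development, was called higher (0.256 to 1.91 FPKM, log2 change 1.21, or 2.90 on plain FPKM), as was HEY1, which also responds to Notch (0.222 to 0.891 FPKM, log2 change 0.63, or 2.00 on plain FPKM). All 3 were under 3 FPKM in both cell lines, and HEY1 was under 1 FPKM in both. In MDA-MB-231, MSX2 and HEY1 lay below the 0.5 FPKM of the filter. They passed it only through their level in the other cell line. With a filter at a mean of 1 FPKM HEY1 was not tested, and at a threshold of 2-fold it was not called. MSX2 kept its call under both. RUNX2 (13.3 and 11.9 FPKM), HES1 (12.6 and 9.30 FPKM), GATA2 (4.67 and 4.13 FPKM), GATA3 (3.10 and 2.42 FPKM) and TNFRSF11B (2.24 and 3.84 FPKM) were not called.

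Of 5 proteases that act on the ligands or their antagonists, 2 were tested and 1 was called (50%, beside 9.27% of all genes). BMP1, which despite its name is a metalloprotease that cleaves chordin, was called lower (18.4 to 7.52 FPKM, log2 change -1.19). FURIN, which cuts the BMP4 precursor, had 32.9 and 46.3 FPKM and was not called. Over all 7 lists beside the members, 75 genes were listed, 45 were tested, 6 were called higher and 7 lower. The share called was 28.9%, beside 9.27% over all genes tested, and the median log2 change was -0.07. Of the genes called, ENG, BMP2, GDF5, MSX2 and HEY1 passed the filter only through the cell line where they were higher.

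The order of the 10 genes by level differed between the cell lines. In MDA-MB-231, BMP4 came first, followed by ID1, ID3, SMAD5, BMPR2, BMPR1A, SMAD1, ID2, SMAD6 and GREM1. Neighbours in this order had overlapping bounds, except ID1 against ID3 and SMAD6 against GREM1. GREM1 was listed at 0 with both bounds at 0, so any gene with a lower bound above 0 is apart from it. In LM2-4175, SMAD5 came first, followed by ID1, BMP4, BMPR1A, SMAD1, BMPR2, ID3, ID2, SMAD6 and GREM1. Here the bounds were apart between ID3 and ID2 and between SMAD6 and GREM1. ID3 thus moved from the third place to the seventh, and its percentile among the genes tested from 77.4 to 29.9, while that of ID1 moved from 88.4 to 62.0.

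Each gene was also set beside the protein-coding genes tested within 1 Mb. None of the 8 neighbours of BMP4 had a log2 change as low, and their median was 0.09. The 11 neighbours of ID1 lay between -0.49 and 0.17 (median -0.06), and the 22 neighbours of ID3 had a median of -0.05 and a lowest value of -1.21. BMP4, ID1 and ID3 were thus lower than every tested neighbour. The 8 neighbours of SMAD1 had a median of 0.21 and a highest value of 0.70, with 7 above 0.

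For BMPR2 and ID2, some neighbours were as low. Of the 18 neighbours of BMPR2, 12 had log2 changes below 0 (median -0.19), 4 were as low as BMPR2, and 2 were called lower and 1 higher. Of the 8 neighbours of ID2, 7 were below 0, with a median of -0.52 and 1 as low. SMAD4, SMAD7 and TWSG1 lie on chromosome 18, where the median over 168 genes was -0.40. TWSG1 was lower than every tested neighbour (lowest -0.71), whereas SMAD4 had 2 neighbours as low and SMAD7 had 1. The neighbours of SMAD4, SMAD7 and TWSG1 had medians of -0.50, -0.57 and -0.37, with 7 of 8, 8 of 9 and 8 of 9 below 0. In contrast, ENG was called higher among 49 neighbours of which 43 were below 0 (median -0.55). The part of the surrounding region in these values was not tested.

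**Figure D4:**
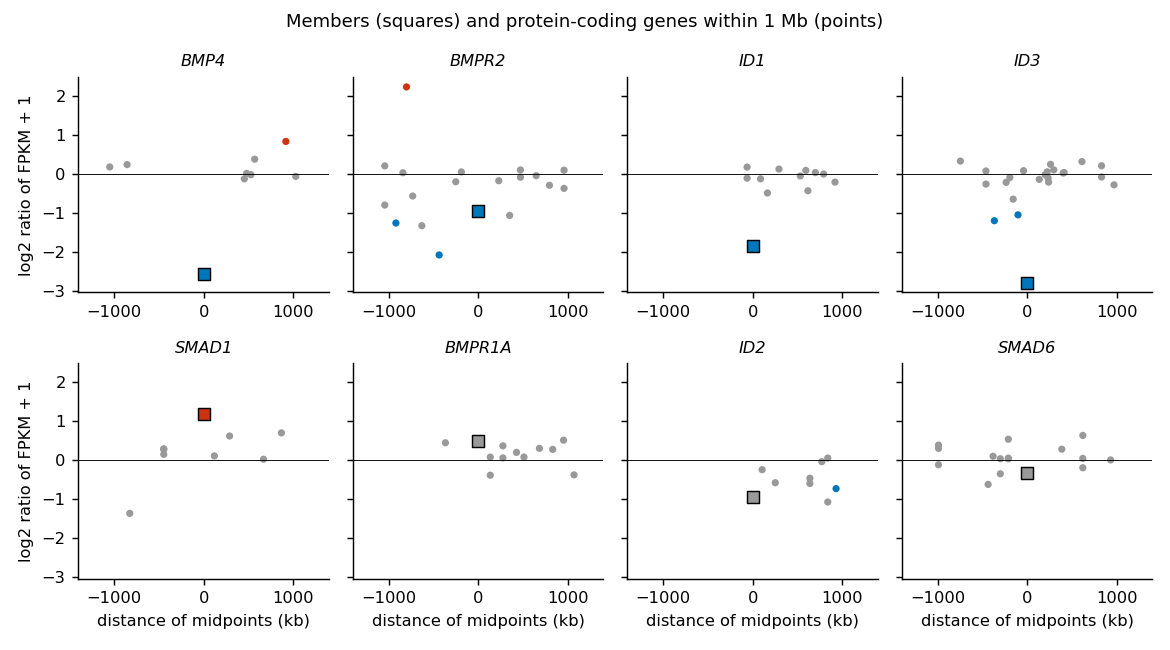
Each panel shows 1 gene (square) and the protein-coding genes tested within 1 Mb (points), by the distance of their midpoints in kb on the horizontal axis and the log2 ratio of FPKM + 1, LM2-4175 over MDA-MB-231, on the vertical axis, with genes called lower in blue, called higher in red and not called in grey. The squares of BMP4, ID1 and ID3 lie below all their neighbours, that of SMAD1 lies above all of its own, and those of BMPR2 and ID2 lie within the range of theirs.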

How the data were processed

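The 4 libraries, 2 per cell line, were grouped by their labels. According to the study's methods and the submitters' processing notes, reads of TruSeq libraries were mapped to hg19 with TopHat2 and quantified on GENCODE genes with Cufflinks and Cuffdiff. The authors deposited 1 FPKM per gene and cell line, with confidence bounds and a status, so replicates could not be compared. Whether the bounds hold the spread between libraries, and whether strand was used, is not given in the sources used here. No counts were used, and the depth behind single values is unknown. Total FPKM was 632944 for MDA-MB-231 and 598147 for LM2-4175. The authors' fold changes and q-values were not used.

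Genes with a status of OK (8 were not) and a mean of at least 0.5 FPKM were tested, and the ratio of FPKM + 1 (pseudocount 1, which understates changes of low genes) was called at 1.5-fold with bounds that did not overlap. This compares pooled libraries and is no test between replicates. The rule was tested on simulated data with noise as wide as the deposited bounds and no separate variation between libraries. That simulation cannot show how often spread between replicates alone would give a call. The members and lists were chosen with earlier results of these data known. Named are all members, every called gene of the 7 lists, up to 5 further genes of each list by mean FPKM, and ID4, SMAD9, TCF4 and the other genes of each sum. No measure of similar patterns across samples exists for 1 value per cell line, and proteins were not compared.

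Positions are those of the table (hg19, made 1-based). GENCODE 44 on GRCh37 (55535 genes found in it) gave exon overlaps, neighbours and upstream sequence, and RefSeq (GRCh38.p14) gave 35116 promoter windows, with all 10 members among them. GENCODE 44 is a later release than the one the study quantified on. The overlap shares therefore need not hold for the gene models behind the FPKM. Python 3.11.15, pandas 2.3.3, NumPy 2.4.6, pysam 0.24.0 and Matplotlib 3.10.9 were used. The alternatives were other pseudocounts, filters, scalings and call rules. PECAM1, a further endothelial marker, was not analysed here. Of the lists as first written, 1 pathway gene and 1 marker are not reported here; neither passed the filter on low values, so the counts of genes tested and called do not depend on them.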

Additional observations from a re-analysis of the deposited data

How the results depend on the processing

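BMP4 (-2.65 to -2.50), ID1 (-1.92 to -1.79) and ID3 (-3.05 to -2.73) were called lower under all 11 alternatives tried, and SMAD1 (1.19 to 1.48) was called higher under the 10 that tested it. Several alternatives could not have undone a call. These were the smaller pseudocounts, no filter, the fold alone, the bounds alone and the fold with 2 standard errors. Only the higher filters, the scalings and the 2-fold threshold could have done so. At a mean of at least 5 FPKM, SMAD1 was not tested, so 0 members were called higher, 7 instead of 13 genes of the lists were called, and 764 instead of 1290 of all genes. With the fold alone 3074 of all genes were called, and with the fold and 2 standard errors 1966. ID2 was called lower under both. With the fold alone, SMAD4 was also called lower. At a threshold of 2-fold, 853 of all genes and 8 genes of the lists were called, and BMPR2, BAMBI, FSTL3, HEY1, NOG and TWSG1 were not. No direction turned. Scaling to TPM moved the median of all genes from -0.04 to 0.03 and the share of calls that were higher from 50.3% to 57.7%, and median-ratio scaling moved that share to 57.5%. No paired analysis was possible because the table holds 1 pooled value per cell line, and for the same reason no library could be left out. Without a pseudocount the log2 changes of low genes were larger, as for GDF5 (-4.32), MSX2 (2.90), BMP2 (2.17), HEY1 (2.00) and ENG (4.71). Wide bounds limit what can be said of BMPR1A, SMAD6 and ID2.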
